A study of Rattus norvegicus with 27 samples.

Results

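Tubulins and growth cone proteins were followed in tail motor neurons of the rat after the spinal cord had been cut. The genes were Basp1, Tubb3 and Tubb2b and, where the array annotation held them, Gap43, Stmn2, Tuba1a, Tubb5, Tubb4a, Marcks and Dpysl3. Every probe set that the annotation gave to one of these genes alone was taken. This gave 12 probe sets of 7 genes, out of 10 genes named and 9769 genes with such a probe set in the whole series. Gap43, Tuba1a and Tubb4a had none and are not analysed here.

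The samples were laser-dissected motor neurons of the sacral cord of adult male Wistar rats, in 4 groups. Spi-21 (8 samples) and Spi-60 (8 samples) had the cord cut at S2 with a short piece removed and were taken 21 or 60 days later, whereas ShamC-21 (6 samples) and ShamC-60 (5 samples) were opened at the vertebrae with the dura left intact and were taken at the same days. All 4 groups carried the retrograde tracer Fluorogold for 5 to 7 days, and all RNA was amplified in 2 rounds before hybridisation to Affymetrix rat 230 2.0 arrays. Each sample held 100 to 200 neurons by the labels and 50 to 200 by the design text. All 4 groups had an operation, so none shows an unoperated rat. The labels call the samples biological replicates but tie none to an animal, and a p-value here speaks of the spread among samples, part of which may be technical.

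Axons are built on microtubules, polymers of alpha- and beta-tubulin whose several genes differ between cell types and ages, and the tip of a growing axon, the growth cone, couples microtubules to the actin cortex. BASP1, MARCKS and GAP-43 are lipid-anchored proteins that act on this cortex at the inner face of the membrane. Stathmin family members bind tubulin dimers, and the CRMP family, to which Dpysl3 belongs, binds tubulin and actin. These genes are strongly expressed in developing neurons, and several are switched on again when a peripheral axon is cut. Here the cut lay in the cord above the motor neurons, whose own axons in the tail nerves were not the target of the operation.

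The stretches of DNA before the starts of Basp1, Tubb3, Tubb2b and Tubb5 are shown because these 4 genes, 1 growth cone protein and 3 beta-tubulins, did not move alike. Each line gives the 250 bases before the annotated start, from RefSeq on build GRCr8, read 5′ to 3′ on the strand of the gene. Capitals mark matches on either strand to 3 common promoter motifs. The GC box was searched as GGGCGG. The other motifs were CCAAT, the CCAAT box, and the core of the TATA box, searched as TATAA.
Basp1, chr2:77594298-77594547, minus strand: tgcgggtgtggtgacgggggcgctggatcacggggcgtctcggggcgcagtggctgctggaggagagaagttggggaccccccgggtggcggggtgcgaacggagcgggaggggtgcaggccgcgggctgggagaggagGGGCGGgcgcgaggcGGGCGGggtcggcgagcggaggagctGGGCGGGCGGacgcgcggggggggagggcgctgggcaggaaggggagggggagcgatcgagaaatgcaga
Tubb3, chr19:68365437-68365686, plus strand: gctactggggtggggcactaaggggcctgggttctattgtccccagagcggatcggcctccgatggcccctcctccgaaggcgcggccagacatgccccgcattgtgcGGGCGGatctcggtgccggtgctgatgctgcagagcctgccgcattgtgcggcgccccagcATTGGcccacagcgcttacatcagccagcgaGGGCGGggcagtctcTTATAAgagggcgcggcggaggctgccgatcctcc
Tubb2b, chr17:30952836-30953085, plus strand: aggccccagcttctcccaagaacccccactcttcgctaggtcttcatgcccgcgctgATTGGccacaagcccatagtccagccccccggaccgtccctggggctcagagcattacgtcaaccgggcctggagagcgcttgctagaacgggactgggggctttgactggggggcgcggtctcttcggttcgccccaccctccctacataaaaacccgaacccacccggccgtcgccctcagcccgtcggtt
Tubb5, chr20:2917327-2917576, plus strand: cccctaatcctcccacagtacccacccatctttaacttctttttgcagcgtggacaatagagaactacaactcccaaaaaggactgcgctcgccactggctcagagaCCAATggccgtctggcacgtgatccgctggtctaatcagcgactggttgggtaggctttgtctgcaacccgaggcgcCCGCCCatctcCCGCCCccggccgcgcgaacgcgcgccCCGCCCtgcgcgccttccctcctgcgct

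The window of Basp1 held 4 GC boxes, the last pair of which overlap, and no other motif searched. The window of Tubb3 held 2 GC boxes, 1 CCAAT and a TATAA on each strand in 1 overlapping run that begins 35 bases before the start. The window of Tubb2b held 1 CCAAT, and that of Tubb5 held 3 GC boxes and 1 CCAAT. Over 33469 rat promoter windows of the same length, 30.5% held GGGCGG, 34% CCAAT and 24% TATAA. The 4 windows held 30, 21, 19 and 22 CG pairs in the order printed, against a median of 5 over all windows. Marcks and Dpysl3 had entries too, with 25 CG pairs for Marcks and 19 and 20 for the 2 starts of Dpysl3. These matches describe the letters only.

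Basp1, Tubb3, 1 of 2 probe sets of Tubb5 and 1 of 2 probe sets of Dpysl3 rose after transection at both days. At 21 days 4 of the 12 probe sets rose and 2 fell, where 11.3% of all 12913 tested probe sets rose and 11.2% fell. At 60 days 4 rose and 2 fell, against 10.2% and 8.92% of all probe sets. The genes were named with earlier results of these data known, so setting them beside these shares is a description and not a test. A probe set counts as risen or fallen where limma's moderated test, adjusted by Benjamini-Hochberg over all 12913 probe sets, gave a p below 0.05. The median log2 difference of the 12 probe sets was 0.06 at 21 days, beside 0.01 over all probe sets, and 0.09 at 60 days, beside 0.02. Signals of transected and sham arrays did not overlap for 4 of 12 probe sets at 21 days (5.3% of all) and for 3 of 12 at 60 days (8.19% of all).

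**Figure D1:**
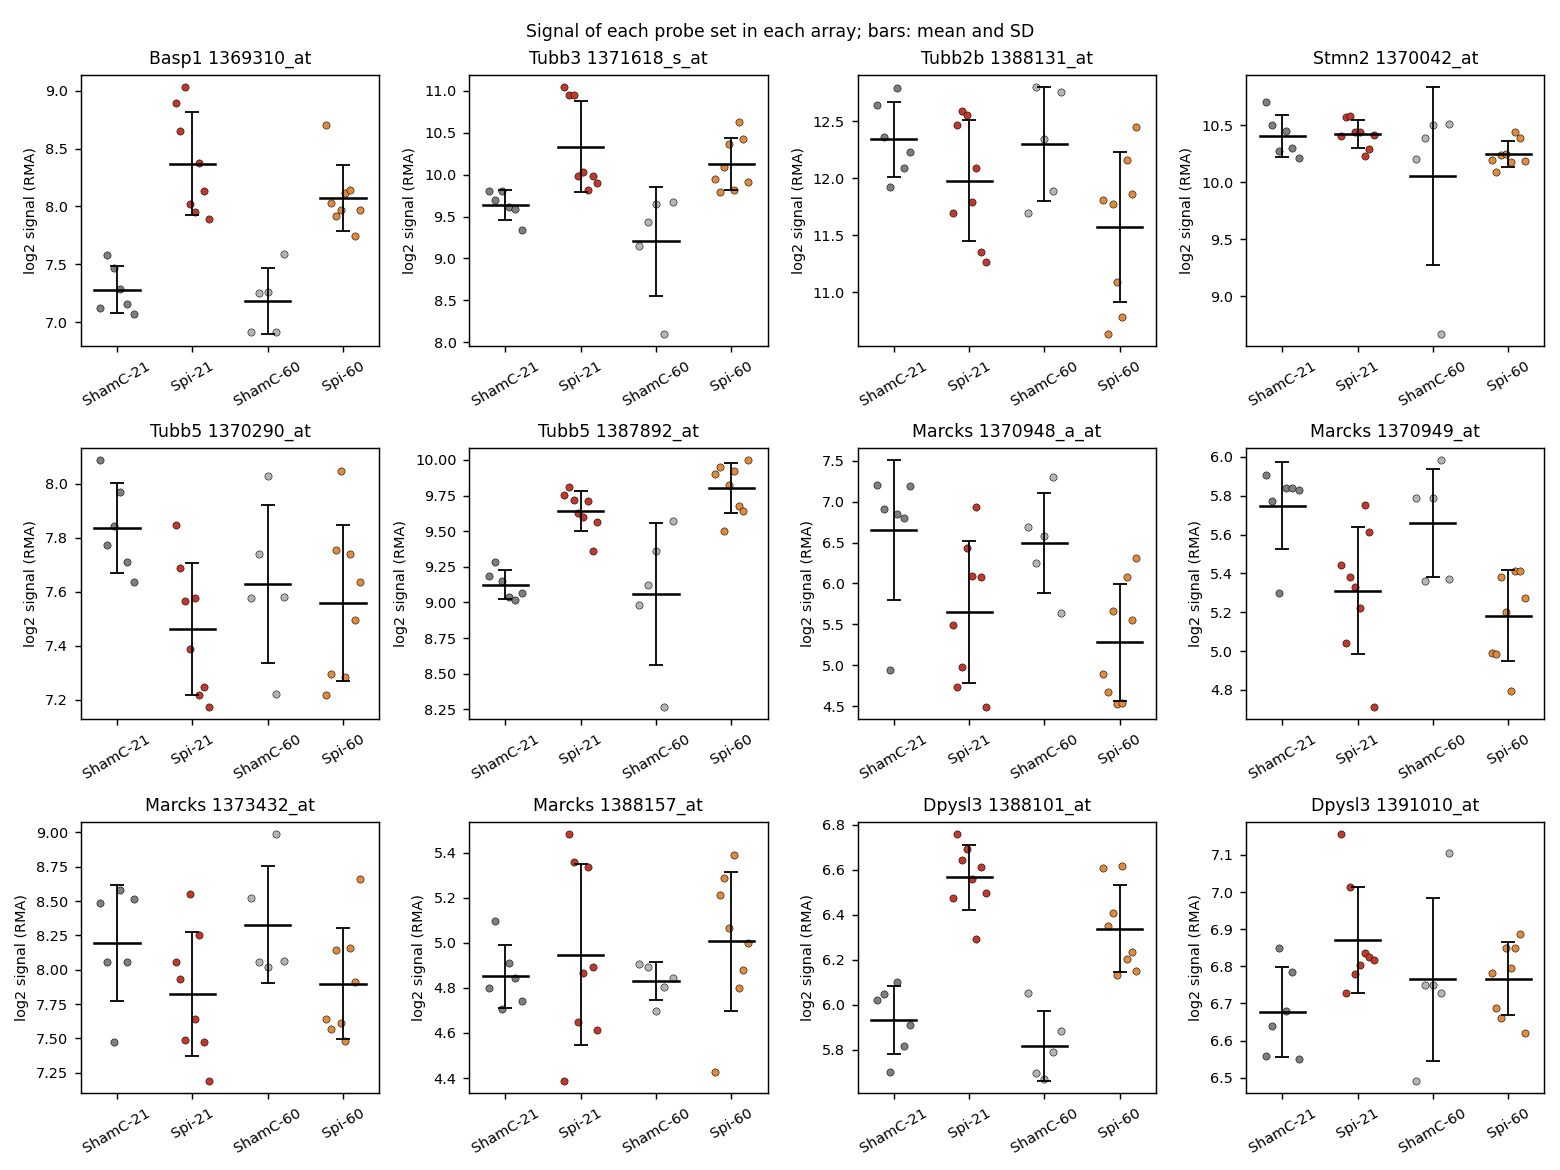
Each panel plots the log2 signal (RMA) of 1 probe set in every array of the 4 groups, with points in the order of the replicate numbers and bars for the group mean and SD (n = 6, 8, 5 and 8 from left to right). Basp1, Tubb3 and Dpysl3 1388101_at separate sham from transected arrays at both days, and Tubb5 1387892_at does so at 21 days, while the 4 panels of Marcks overlap.

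Some measures of the arrays themselves moved with the operation. Signal differences between the 3' and 5' ends of the beta-actin control, which rise as RNA is shortened or copied from its 3' end, lay between 2.86 and 3.6 log2 units in the transected arrays of day 21 and between 1.97 and 2.65 in the sham arrays. Day 60 gave 2.75 to 3.77 against 1.92 to 2.42 (exact permutation tests, two-sided, adjusted over 20 tests, p = 0.0133 and 0.0155). Since the operations do not overlap in this measure, its part in any difference below cannot be told apart from the operation. With it as a covariate in limma, Basp1 (1.28, adjusted p = 0.0158) and Dpysl3 1388101_at (0.60, adjusted p = 0.0402) kept their calls at 21 days, and none of the 12 probe sets passed at 60 days, where Basp1 stood at 1.10 (adjusted p = 0.0702) and Tubb3 at 0.73 (adjusted p = 0.364). Most calls over all probe sets were lost too, with 463 at 21 days and 162 at 60 days, beside 2917 and 2463 without the covariate.

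The motor neuron character of the samples was checked on 10 of 14 markers held by the array. Their mean log2 signal lay between 10.5 and 10.8 in every array but one, with the neurofilament genes Nefh, Nefl and Nefm above 12.5 in all. The exception was sham replicate 4 of day 60, at 9.2, where Prph, a peripherin of motor and sensory neurons, stood at 9.78. The list was higher in transected arrays at 60 days, at 10.6 to 10.8 against 9.2 to 10.7, by 0.425 (exact permutation test, adjusted p = 0.0311). Chat and Mnx1 had no single-gene probe set here. The list mixes bright and dim genes. Isl1 averaged 6.06 to 6.16 and Chrna4 5.37 to 5.83 over the 4 groups, below the median of any array (6.31 to 6.41). Slc18a3 averaged 6.76 to 8.24 and Slc5a7 10.7 to 11.15. Blood markers (2 of 5 measured) were lower in transected arrays at 60 days, at 6.26 to 6.88 against 6.72 to 8.81 (adjusted p = 0.0311, exact permutation test), and markers of oligodendrocyte precursors and Schwann cells (4 of 5 measured) at 7.94 to 8.25 against 8.1 to 9.25 (adjusted p = 0.0233). The values of 8.81 and 9.25 came from sham replicate 1 of day 60. That array also had the highest astrocyte (9.77) and oligodendrocyte (8.59) means of all 27 arrays. Astrocyte, oligodendrocyte, microglia, vessel and interneuron lists did not pass at either day, although glial signal was present. The astrocyte list (9 of 12) averaged 8.46 to 9.24 in Spi-21, 7.87 to 9.19 in ShamC-21, 8.82 to 9.67 in Spi-60 and 8.54 to 9.77 in ShamC-60. Its genes did not move alike. Aldoc, its brightest, ran from 11.91 to 12.58 in Spi-21 against 11.29 to 11.6 in ShamC-21. At 60 days Aldoc ran from 12.06 to 13.14 against 10.35 to 11.7. Gfap, S100b and Slc1a2 also averaged higher in transected arrays at both days. The mean of Gfap was 10.62 in Spi-21 against 9.558 in ShamC-21, and 11.15 in Spi-60 against 10.5 in ShamC-60. Gja1, Fgfr3 and Slc1a3 averaged higher at 21 days and lower at 60 days. Gjb6 and the dim Aqp4 (means of 5.43 to 5.59) averaged slightly lower in transected arrays at both days. The mean of the astrocyte and oligodendrocyte markers entered an alternative limma fit as a covariate. That fit called 3064 probe sets at 21 days and 3023 at 60 days, beside 2917 and 2463 without it. The part of the other marker lists in the results was not tested beyond the values given. In dissected samples like these, fewer cells of a type and less RNA per cell cannot be told apart.

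Basp1 encodes a lipid-anchored protein of growth cones and synaptic endings, and it showed the largest rise of the 12 probe sets at 21 days. Its log2 signal ran from 7.07 over a median of 7.22 to 7.58 in ShamC-21 and from 7.89 over 8.26 to 9.03 in Spi-21. In ShamC-60 the 5 arrays gave 6.91, 7.25, 7.26, 6.91 and 7.59, and Spi-60 ran from 7.75 over 8.00 to 8.71. All transected arrays lay above all sham arrays of their day. The difference was 1.09 ± 0.169 (SE) at 21 days, a 2.13-fold rise (limma, adjusted p = 8.98e-05), and 0.89 ± 0.178 at 60 days, a 1.85-fold rise (adjusted p = 0.00108). Both calls held when any of the 27 arrays was left out, with adjusted p up to 0.0058.

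The order of the groups for Basp1 was ShamC-60 (7.18 ± 0.283, SD), ShamC-21 (7.28 ± 0.205), Spi-60 (8.07 ± 0.283) and Spi-21 (8.37 ± 0.444). Neighbours of the same operation did not differ beyond their spread: 60 minus 21 days was −0.10 within sham (95% interval −0.485 to 0.292) and −0.29 within transected arrays (−0.615 to 0.0259). The change in the transection effect from 21 to 60 days was −0.20 ± 0.246 (limma, adjusted p = 0.912).

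The 8 arrays of Spi-21 fell into 2 sets by the GAPDH control, whose 3' minus 5' difference was 2.57 to 3.47 in replicates 1 to 4 but only 0.985 to 1.46 in the others, replicates 5 to 8. Basp1 averaged 8.65 in the former and 8.09 in the latter, with ranges of 8.02 to 9.03 and 7.89 to 8.38. Tubb3 averaged 10.7 and 9.94 and Tubb2b 12.3 and 11.6 in the same sets. The sets overlapped in these genes. Tubb3 ran from 9.99 to 11.05 and from 9.82 to 10.03, with replicate 4 at 9.99. Tubb2b ran from 11.69 to 12.59 and from 11.27 to 12.09. The microglia list also differed between them, at 6.72 to 7.67 against 5.97 to 6.50. Against the sham arrays of day 21, replicates 5 to 8 alone gave 0.81 for Basp1 (adjusted p = 0.00301) and 0.29 for Tubb3 (adjusted p = 0.414). Replicates 1 to 4 alone gave 1.37 and 1.10 (adjusted p = 2.13e-05 and 0.00235). What sets these arrays apart is not in the labels, and its part in the results was not tested.

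**Figure D2:**
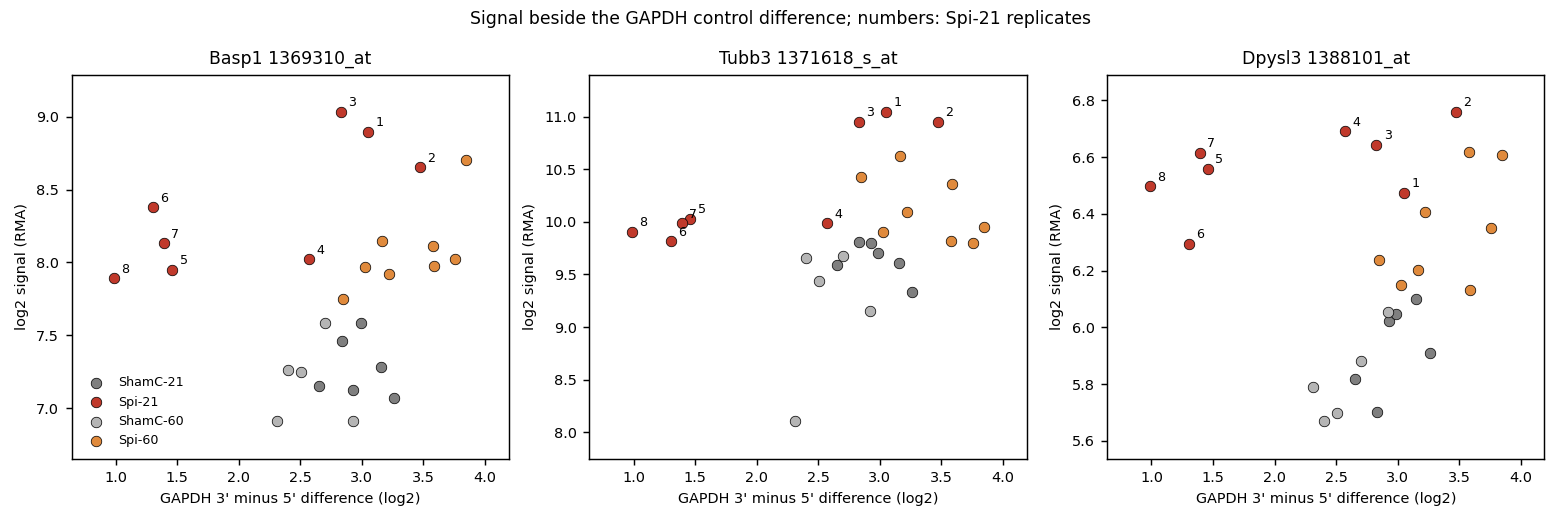
The log2 signal (RMA) of Basp1, Tubb3 and Dpysl3 1388101_at is plotted against the GAPDH 3' minus 5' difference (log2) of the same array, with 1 point per array, colours for the 4 groups and numbers for the replicates of Spi-21. Replicates 5 to 8 of Spi-21 lie at 0.985 to 1.46 on the x axis, apart from all other arrays, and Tubb3 reaches about 11 in replicates 1 to 3 of Spi-21 only.

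Marcks encodes the substrate of protein kinase C that binds calmodulin and the phospholipid PIP2 at the membrane. Its 4 probe sets gave 3 lower readings and 1 that was slightly higher. Probe set 1370949_at passed the test at both days. It ran from 5.3 over 5.84 to 5.91 in ShamC-21 and from 4.71 over 5.35 to 5.75 in Spi-21, so the lowest sham array, replicate 3, lay among the transected arrays. In ShamC-60 it gave 5.79, 5.36, 5.79, 5.98 and 5.37, and Spi-60 ran from 4.80 over 5.24 to 5.41, overlapping sham replicates 2 and 5. The differences were −0.44 (limma, adjusted p = 0.0287) and −0.48 (adjusted p = 0.0268), and these signals lie below the median of any array, 6.31 to 6.41. Single arrays ended the call in 7 fits at 21 days and in 5 at 60 days, with adjusted p up to 0.0686 and 0.103.

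For Marcks 1370948_a_at the values were widely spread. ShamC-21 ran from 4.94 over 6.88 to 7.21 and Spi-21 from 4.49 over 5.79 to 6.93. ShamC-60 gave 6.69, 6.26, 6.58, 7.31 and 5.64, and Spi-60 ran from 4.53 over 5.22 to 6.31. The groups overlapped at both days, with sham replicate 3 of day 21 at 4.94 and 1 array of Spi-21 at 6.93. The difference was −0.998 at 21 days (95% interval −1.79 to −0.204, adjusted p = 0.0622) and −1.21 at 60 days (adjusted p = 0.0366). Without sham replicate 3 of day 21 the first became −1.34 (adjusted p = 0.0104), and each of 7 single arrays ended the second call, among them sham replicate 4 of day 60 (−1.01, adjusted p = 0.126).

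The other probe sets of Marcks did not pass. Probe set 1373432_at gave −0.37 and −0.43 (95% intervals −0.816 to 0.071 and −0.9 to 0.0362 at 21 and 60 days), and 1388157_at gave 0.10 and 0.18 (−0.213 to 0.406 and −0.148 to 0.505). The means of 1388157_at lay between 4.83 and 5.01 in the 4 groups. After group means were taken out, the first 3 probe sets correlated with each other over the 27 arrays at r of 0.818, 0.792 and 0.636, whereas 1388157_at stood between −0.04 and 0.05 with them. These arrays share their labelling and normalization, so the correlations are descriptions. Within arrays, 1370949_at minus 1388157_at was lower after transection by −0.53 at 21 days and −0.65 at 60 days (exact permutation tests, two-sided, adjusted over 18 tests, p = 0.0396 and 0.0311), and 9 and 3 single arrays ended these calls. Without sham replicates 1 and 4 of day 60 the later one was −0.521 (exact permutation test, adjusted p = 0.167).

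Among the tubulins, Tubb3 encodes the beta-III isotype, which is largely restricted to neurons. Its probe set is of the s_at type, whose probes can match transcripts of more than 1 gene. The log2 signal ran from 9.33 over 9.66 to 9.81 in ShamC-21 and from 9.82 over 10.01 to 11.05 in Spi-21. In ShamC-60 the arrays gave 9.15, 9.44, 9.66, 8.10 and 9.67, and Spi-60 ran from 9.80 over 10.0 to 10.6. No transected array fell among the sham arrays of its day, but the gap at 21 days lay between 9.81 and 9.82, and replicate 4 of ShamC-60 stood more than a log2 unit below the other 4.

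Tubb3 rose by 0.70 ± 0.226 (SE) at 21 days, 1.62-fold (limma, adjusted p = 0.0275), and by 0.92 ± 0.238 at 60 days, 1.89-fold (adjusted p = 0.00827). The earlier call was lost without replicate 1, 2 or 3 of Spi-21 or replicate 6 of ShamC-21, with differences of 0.59 to 0.63 and adjusted p up to 0.0653. The earlier difference also changed sign with a block for the replicate number and the beta-actin covariate in the same fit. The later one kept an adjusted p of 0.0487 and fell to 0.64 without sham replicate 4, and without sham replicates 1 and 4 together it was 0.53 (adjusted p = 0.189). The GAPDH 3' minus 5' difference was higher in transected arrays at 60 days, at 2.85 to 3.85 against 2.31 to 2.92 (exact permutation test, adjusted p = 0.0207), and with it as a covariate, added after the data were seen, Tubb3 differed by 0.62 at 60 days (limma, adjusted p = 0.121) and Basp1 by 0.61 (adjusted p = 0.0247). The group means were 9.2 ± 0.651 (SD) in ShamC-60, 9.64 ± 0.176 in ShamC-21, 10.1 ± 0.311 in Spi-60 and 10.3 ± 0.542 in Spi-21. The days did not differ beyond the spread within sham (−0.44, 95% interval −0.954 to 0.0822) or within transected arrays (−0.21, −0.64 to 0.216), and the effect differed between days by 0.22 ± 0.328 (adjusted p = 0.934).

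Tubb2b encodes a beta-tubulin that is abundant in developing neurons, and Tubb2a is its near-identical paralog, so a probe set may read both. ShamC-21 ran from 11.9 over 12.3 to 12.8 and Spi-21 from 11.3 over 11.9 to 12.6. The 5 values of ShamC-60 were 11.7, 12.8, 12.3, 11.9 and 12.8, and Spi-60 ran from 10.6 over 11.8 to 12.4. The groups overlapped at both days, with 3 arrays of Spi-60 below 11.1 and no sham array there. The difference was −0.36 (95% interval −0.912 to 0.185, limma, adjusted p = 0.339) at 21 days and −0.73 (−1.31 to −0.149, adjusted p = 0.0691) at 60 days. Leaving out replicate 6 or 8 of Spi-60 brought the later difference to −0.81 or −0.85 and past the threshold (adjusted p = 0.0486 and 0.0307). These were 2 of 27 single removals, over which that difference ran from −0.877 to −0.594 (limma, adjusted p up to 0.166). Leaving out sham replicates 1 and 4 of day 60 gave −1.07 (adjusted p = 0.0453), and array weights gave −0.922 (limma, adjusted p = 0.00565).

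Tubb2b and Tubb3 differed from each other in their change. They were the only different genes compared within arrays, and this comparison was added after the data were seen. The adjustment over 18 tests does not cover that choice. The Tubb3 minus Tubb2b signal within the same array was higher after transection by 1.06 log2 units at 21 days (8 against 6 arrays) and by 1.65 at 60 days (8 against 5 arrays), with exact permutation p of 0.004 and 0.00155, adjusted over 18 tests to 0.0175 and 0.014. At 21 days the values of this within-array difference overlapped, at −2.57 to −0.644 in transected and −3.19 to −2.11 in sham arrays. At 60 days the sham values ended at −2.55 and the transected values began at −2.54. These calls held without any single array, at 0.916 to 1.19 and 1.48 to 1.8. Mean signals of Tubb2b were 12.3 ± 0.333 (SD) in ShamC-21, 12.3 ± 0.5 in ShamC-60, 11.98 ± 0.53 in Spi-21 and 11.6 ± 0.658 in Spi-60. Sham arrays of the 2 days differed by −0.04 (95% interval −0.658 to 0.572) and transected arrays by −0.41 (−0.914 to 0.101), within the spread.

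Tubb5 encodes a beta-tubulin present in most cells, and its 2 probe sets moved apart. Probe set 1387892_at ran from 9.02 over 9.11 to 9.28 in ShamC-21 and from 9.36 over 9.67 to 9.81 in Spi-21, with no overlap. In ShamC-60 it gave 8.98, 9.12, 9.36, 8.27 and 9.57, and Spi-60 ran from 9.50 over 9.86 to 10.0, so that 7 of 8 transected arrays lay above all sham arrays. It rose by 0.52 at 21 days (limma, adjusted p = 0.00639) and by 0.74 at 60 days (adjusted p = 0.000546), and no single array ended either call. Without sham replicate 4 of day 60 the later rise was 0.54 (adjusted p = 0.00185). Replicates 5 to 8 of Spi-21 alone gave 0.43 (adjusted p = 0.0897).

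Probe set 1370290_at of Tubb5 ran from 7.64 over 7.81 to 8.09 in ShamC-21 and from 7.17 over 7.48 to 7.85 in Spi-21. ShamC-60 gave 7.58, 7.74, 8.03, 7.22 and 7.58, and Spi-60 ran from 7.22 over 7.57 to 8.05. The ranges overlapped at both days and nearly coincided at 60 days. It fell by 0.37 on the log2 scale at 21 days (limma, adjusted p = 0.0457), a call that 14 of the 27 single removals ended (adjusted p up to 0.116) and that was lost with glial markers as a covariate (−0.32, adjusted p = 0.101), and the difference at 60 days was −0.07 (95% interval −0.363 to 0.22, adjusted p = 0.76). Within arrays, 1370290_at minus 1387892_at was lower in transected arrays by −0.89 at 21 days and −0.81 at 60 days (exact permutation p = 0.000666 and 0.00622, adjusted 0.012 and 0.0175 over 18 tests). Without sham replicates 1 and 4 of day 60 the later one was −0.676 (exact permutation test, adjusted p = 0.0899). At 21 days these within-array values did not overlap, at −2.49 to −1.9 against −1.51 to −1.07. The annotation used gives no positions of the probe sets, so which transcripts each reads was not tested.

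Stmn2 encodes a neuronal stathmin of growth cones that binds tubulin dimers. Its signal ran from 10.2 over 10.4 to 10.7 in ShamC-21 and from 10.2 over 10.4 to 10.6 in Spi-21. In ShamC-60 it gave 10.2, 10.4, 10.5, 8.68 and 10.5, and Spi-60 ran from 10.1 over 10.2 to 10.4. All groups overlapped, and only replicate 4 of ShamC-60 stood apart, the same array in which the motor neuron markers, Tubb3 and Tubb5 1387892_at were lowest. The difference was 0.02 (95% interval −0.352 to 0.382, limma, adjusted p = 0.96) at 21 days and 0.19 (−0.195 to 0.579, adjusted p = 0.502) at 60 days, and without that array the latter was −0.15 (adjusted p = 0.319).

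Dpysl3 encodes CRMP4, a cytosolic protein of the collapsin response mediator family that binds microtubules and bundles actin. Probe set 1388101_at ran from 5.7 over 5.97 to 6.1 in ShamC-21 and from 6.29 over 6.59 to 6.76 in Spi-21. In ShamC-60 it gave 6.05, 5.70, 5.67, 5.79 and 5.88, and Spi-60 ran from 6.13 over 6.29 to 6.62. No transected array overlapped the sham arrays of its day. The rise was 0.63 ± 0.0954 (SE, limma, adjusted p = 6.69e-05) at 21 days and 0.52 ± 0.101 (adjusted p = 0.000764) at 60 days, and no single array ended either call. Its signal in Spi-60 was below that in Spi-21 by 0.23 (95% interval −0.409 to −0.0472), with an unadjusted p of 0.0153 that rose to 0.25 after adjustment.

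The second probe set of Dpysl3, 1391010_at, did not pass. It ran from 6.55 over 6.66 to 6.85 in ShamC-21 and from 6.73 over 6.82 to 7.16 in Spi-21. ShamC-60 gave 6.49, 6.75, 6.75, 6.73 and 7.10, and Spi-60 ran from 6.62 over 6.79 to 6.89. The groups overlapped at both days, with differences of 0.19 (95% interval 0.0155 to 0.371, limma, adjusted p = 0.106) and 0.00 (−0.186 to 0.189, adjusted p = 0.993). Within arrays 1388101_at minus 1391010_at rose by 0.44 and 0.52 (exact permutation p = 0.00733 and 0.00777, both 0.0175 adjusted over 18 tests).

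**Figure D3:**
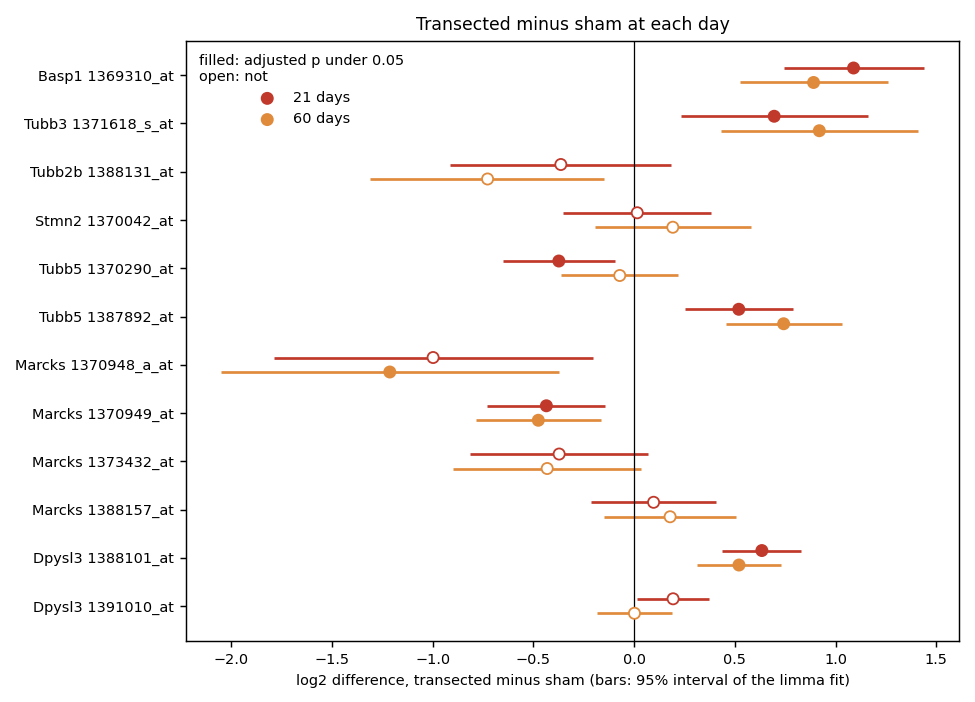
Log2 differences, transected minus sham, at 21 and 60 days for the 12 probe sets, with 95% intervals of the limma fit as bars and filled points where the adjusted p was below 0.05. Basp1, Tubb3, Tubb5 1387892_at and Dpysl3 1388101_at are filled to the right of 0 at both days, and Marcks 1370949_at is filled to the left at both.

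None of the 12 probe sets passed the test for a transection effect that differs between the days. The interaction of limma called 0 of all 12913 probe sets, or 0%, with 905 at an unadjusted p below 0.05 and none of the 12 among them. Within sham arrays 60 minus 21 days called 0 probe sets (0%), with 513 at an unadjusted p below 0.05, again with none of the 12. Within transected arrays it called 11, or 0.0852%, none of them among the 12. There 1706 of all probe sets, or 13.2%, had an unadjusted p below 0.05, and Dpysl3 1388101_at was the only one of the 12 among them. The 4 groups enter these comparisons more than once, so they are not independent of the differences at each day.

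The 12 probe sets did not vary as 1 block within groups. After group means were taken out, Tubb3 correlated over the 27 arrays with Stmn2 (r = 0.738), Tubb5 1370290_at (0.738) and Basp1 (0.588), and Stmn2 with Tubb5 1387892_at (0.75). The probe sets of Tubb5 correlated at 0.312 with each other and those of Dpysl3 at −0.281. Replicate 4 of ShamC-60, low in Tubb3, Stmn2 and both Tubb5 probe sets, enters the highest of these values. The points share normalization and amplification, and no p is given.

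**Figure D4:**
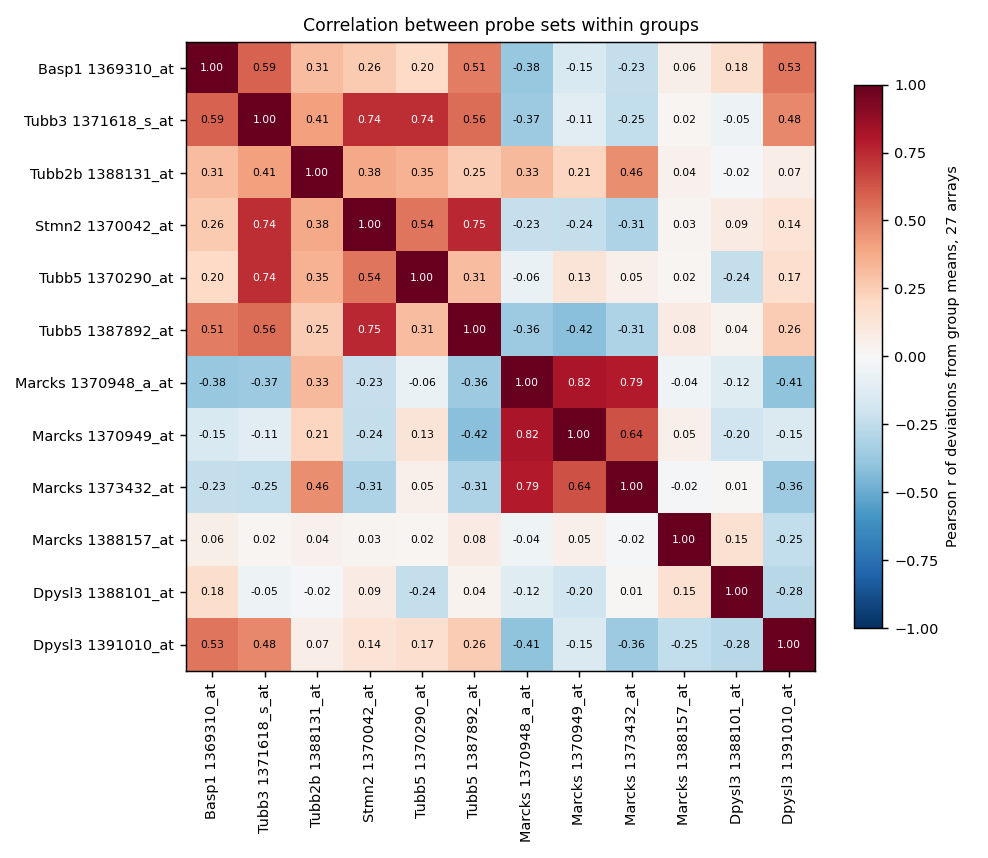
Pearson correlations between the 12 probe sets over the 27 arrays after subtracting each group's mean, with red for positive and blue for negative values. Tubb3, Stmn2 and the Tubb5 probe sets form a red block, 3 Marcks probe sets form another, and with the others Marcks 1388157_at lies between −0.249 and 0.155 and Dpysl3 1388101_at between −0.281 and 0.177.

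The genes with the most similar pattern to Basp1 over the 27 arrays were Acads, a mitochondrial acyl-CoA dehydrogenase (r = 0.925, and 0.776 after group means were removed), Tle5, a transcriptional corepressor (0.924 and 0.751), Zic2, a zinc finger transcription factor (0.918 and 0.701), Camk2n1, an inhibitor of CaM kinase II (0.91 and 0.631), and Flywch1 (0.909 and 0.643). For Tubb3 they were Map1lc3a, an autophagosome protein first found on microtubules (0.92 and 0.904), Adap1 (0.913 and 0.822), Josd2 (0.912 and 0.863), Adam15 (0.911 and 0.842) and Hid1 (0.909 and 0.852). For Tubb2b they were another beta-tubulin, Tubb6 (0.825 and 0.806), Prkab1, a subunit of AMP kinase (0.81 and 0.774), Reg3b, a secreted lectin (0.784 and 0.69), Atf3, a transcription factor of the injury response (0.776 and 0.789), and Rgma (0.763 and 0.776). Atf3 fell after transection at 21 days by 1.77 on the log2 scale (adjusted p = 0.0211) with −0.52 at 60 days (adjusted p = 0.557), and the differences of Reg3b were −2.57 and −3.46 (limma, adjusted p = 0.0343 and 0.00973).

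Of 15 other tubulin genes listed, 6 were measured by a single-gene probe set, taking the brightest per gene. At 21 days 2 rose and 1 fell, where 11.1% of all 9769 genes rose and 11.5% fell, and at 60 days 1 rose and 0 fell, against 10.7% and 9.44%. Tubg1, the gamma-tubulin that nucleates microtubules, rose by 0.67 ± 0.203 and 0.74 ± 0.215 (limma, adjusted p = 0.0201 and 0.0164). Tuba4a rose by 0.34 ± 0.106 at 21 days (adjusted p = 0.0221) with 0.18 at 60 days (adjusted p = 0.268). Tubb6 fell by 0.67 on the log2 scale at 21 days (adjusted p = 0.0412) with −0.53 at 60 days (adjusted p = 0.131). Each of these calls was ended by 1 or more single arrays, 7 for Tubb6, and with the beta-actin covariate 0 genes of the list were called at either day. That covariate left 463 and 162 calls over all probe sets, beside 2917 and 2463 in the main fit. The other 3, Tubb2a, Tubb4b and Tube1, gave differences between −0.14 and 0.31, and the list's median was 0.10 and 0.13 beside 0.01 and 0.02 over all genes.

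Tubulin folding and modification had 7 of 20 genes measured, with 2 higher and 1 lower at 21 days (11.1% and 11.5% of all genes) and 2 higher and 0 lower at 60 days (10.7% and 9.44%). With any single array left out 1 to 2 were higher at each day, and with the beta-actin covariate 0 were called. Over all probe sets that covariate left 463 calls at 21 days and 162 at 60 days, beside 2917 and 2463. Ttll7, a ligase that adds glutamates to beta-tubulin, rose by 0.82 ± 0.198 and 1.06 ± 0.209 (limma, adjusted p = 0.00451 and 0.000946), and Tbcb, a folding cofactor of alpha-tubulin, by 0.45 ± 0.145 and 0.47 ± 0.153 (adjusted p = 0.0274 and 0.0308). The call of Ttll7 held without any single array, while 3 and 4 arrays ended those of Tbcb. Agtpbp1, which removes glutamates from tubulin, fell by 0.37 on the log2 scale at 21 days in its brightest probe set (adjusted p = 0.0351), but rose by 0.28 and 0.38 in another pair of its probe sets (adjusted p = 0.0183 and 0.00976). No direction is therefore given for that gene.

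Microtubule-associated proteins had 25 of 35 genes measured. At 21 days 5 rose and 1 fell, and at 60 days 9 rose and 2 fell, against 11.1% and 11.5% of all genes at 21 days and 10.7% and 9.44% at 60 days, while the median of the list was −0.11 and 0.19. Over single removals 3 to 7 were higher and 1 to 5 lower at 21 days, with 3 higher without replicate 2 of Spi-21 or replicate 2, 5 or 6 of ShamC-21 and 5 lower without replicate 7 of Spi-21. At 60 days single removals gave 7 to 10 higher and 2 to 3 lower, but without sham replicates 1 and 4 together 2 were higher and 0 lower. The beta-actin covariate gave 1 higher at 21 days and 0 at 60 days. Calls over all probe sets fell as well. Without sham replicates 1 and 4 together they numbered 797 at 60 days, beside 2463 in the main fit. With the beta-actin covariate they numbered 463 at 21 days and 162 at 60 days, beside 2917 and 2463. Map1s rose by 0.62 at both days (limma, adjusted p = 0.0018 and 0.00272) and Camsap3, which binds microtubule minus ends, by 0.44 and 0.61 (adjusted p = 0.0142 and 0.00212). Map1lc3a rose by 0.53 and 0.99 (adjusted p = 0.0358 and 0.00079), and 7 single arrays ended its call at 21 days. Map1a, a structural protein of mature axons and dendrites, rose by 0.71 ± 0.167 at 60 days (adjusted p = 0.00396) with 0.39 at 21 days (adjusted p = 0.0719).

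Map1b, its relative in growing axons, rose by 0.64 ± 0.147 at 60 days (adjusted p = 0.00329) with 0.26 at 21 days (adjusted p = 0.175). Without sham replicate 4 the later rise was 0.396 (limma, adjusted p = 0.00669), and its probe set 1395357_at fell by 0.60 on the log2 scale at 21 days (adjusted p = 0.0107). Lower were Map4 at 60 days (−0.70, adjusted p = 0.00118), which other cell types express widely, the severing enzyme Spast at 60 days (−0.79, adjusted p = 0.0199) and the depolymerising kinesin Kif2a at 21 days (−0.55, adjusted p = 0.0102). The other probe sets of Map4 gave −0.03 and 0.20 at 60 days and did not pass, whereas 1 of 2 others of Kif2a fell as well (−0.80 at 21 days, adjusted p = 0.00534). Mapt, which encodes tau, did not pass in its brightest probe set but rose by 1.02 in 1368138_at and fell by 0.95 in 1387071_a_at at 60 days (limma, adjusted p = 0.000132 and 5.16e-05), without overlap between groups in either. Mapt was chosen after its values were seen.

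Other growth cone and membrane-associated proteins had 31 of 44 genes measured, with 1 higher and 2 lower at 21 days (11.1% and 11.5% of all genes) and 5 higher and 3 lower at 60 days (10.7% and 9.44%). The median of the list was −0.08 and −0.09. Over single removals 1 to 2 were higher and 2 to 3 lower at 21 days, and 2 to 5 were higher and 2 to 5 lower at 60 days. The 2 higher came without replicate 5 of Spi-60 or replicate 1 or 4 of ShamC-60, and the 5 lower without replicate 3 of Spi-60. With the beta-actin covariate 0 were higher and 1 lower at 21 days and 0 passed at 60 days. It left 463 and 162 calls over all probe sets at these days, beside 2917 and 2463 in the main fit. Cttn, which binds branched actin, rose by 0.30 and 0.29 (limma, adjusted p = 0.0152 and 0.0263), and 4 single arrays ended the later call (adjusted p up to 0.069). Pfn1, which feeds actin monomers to growing filaments, rose by 0.59 ± 0.116 at 60 days (adjusted p = 0.000882) with −0.06 at 21 days. Cd24 (0.88, adjusted p = 0.00591), Dbnl (0.50, adjusted p = 0.0271) and Dbn1 (0.34, adjusted p = 0.0304) also rose at 60 days, and 4 and 6 single arrays ended the calls of Dbnl and Dbn1. Without sham replicate 4 of day 60 the rise of Cd24 was 0.584 (limma, adjusted p = 0.0315) and the difference of Dbnl 0.323 (adjusted p = 0.148).

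Rtn4, which encodes the neurite inhibitor Nogo and is made by neurons and oligodendrocytes, fell by 1.03 on the log2 scale at 21 days (adjusted p = 0.00168) with −0.64 at 60 days (adjusted p = 0.0504), while its other probe set gave −0.19 and −0.16. Cyfip1, a subunit of the actin-regulating WAVE complex, fell by 0.95 and 1.10 (adjusted p = 0.0124 and 0.00777). Crtac1 (−0.79, adjusted p = 0.0144) and Gpm6b (−1.12, adjusted p = 0.0322) fell at 60 days in limma's test, and 1 and 5 single arrays ended these calls. Without sham replicate 1 of day 60 Gpm6b differed by −0.715 (limma, adjusted p = 0.165). Nrcam was not called in its brightest probe set. Its 1392734_at gave −1.31 and −1.73 (limma, adjusted p = 0.00207 and 0.000246). Its 1377001_at gave −0.77 and −0.63 (adjusted p = 0.00666 and 0.0331). Less bright probe sets rose for Cap1 at 21 days (0.29, adjusted p = 0.0181) and Ywhaz at 60 days (0.66, adjusted p = 0.0261). Nrcam, Cap1 and Ywhaz were chosen after their values were seen. The differences between days of these listed genes did not pass in any case, since the interaction called no probe set.

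**Figure D5:**
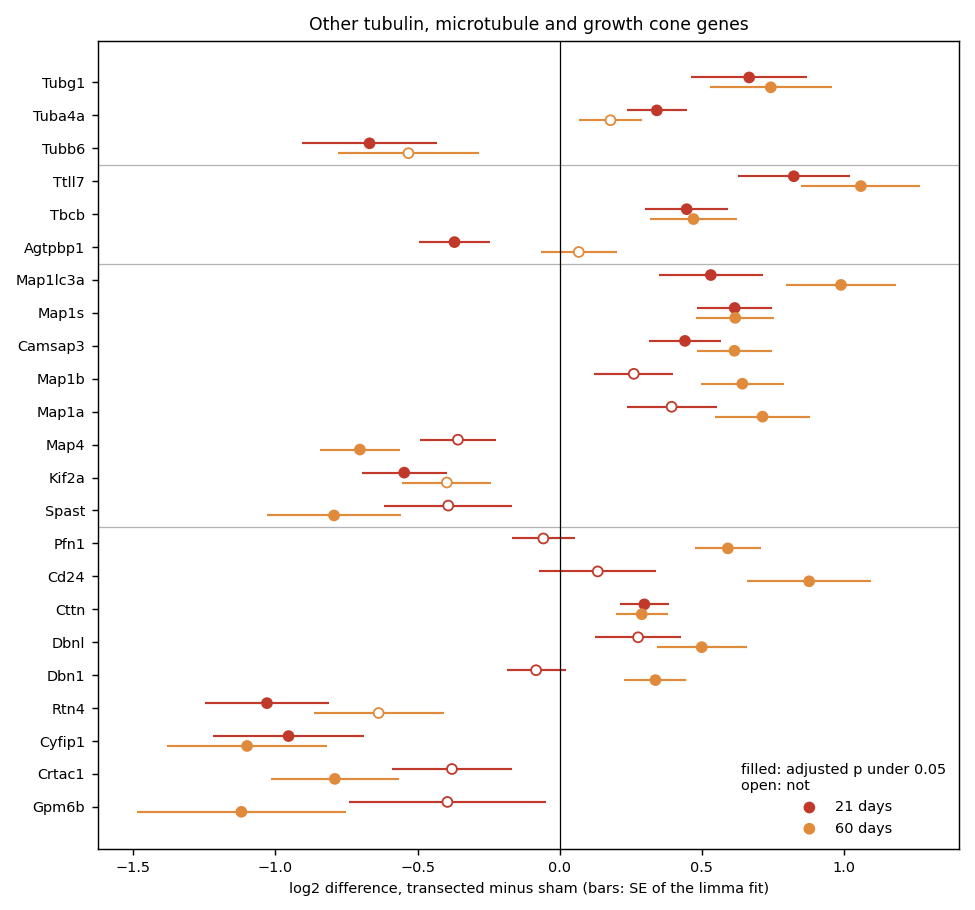
Log2 differences, transected minus sham, with SE of the limma fit, for the listed genes past the threshold at either day, up to 5 per direction and list with the smallest p. Grey lines part other tubulins, folding and modification, microtubule-associated proteins and other growth cone proteins from top to bottom, and filled points mark an adjusted p below 0.05.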

How the data were processed

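The authors deposited log2 signals of 12919 probe sets on 27 Affymetrix arrays, made by RMA per the submitters' processing notes. RMA corrects background, brings arrays to a common distribution and summarises the probes of a set, so very low signals are compressed. The RMA version, and how these probe sets were picked, are not given in the sources used. Arrays have no count depth, so the number of arrays limits the precision.

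Groups and replicate numbers came from the sample titles. Genes were named through the platform annotation: 11880 of 12913 tested probe sets had 1 symbol, 320 several and 713 none, and 6 control probe sets were left out of the fit. The test of a difference was limma 3.58.1 in R 4.3.3 (lmFit, then eBayes, 27 arrays in 4 groups, no covariate, two-sided), adjusted by Benjamini-Hochberg over 12913 probe sets at 0.05, and the steps were checked on simulated data. ± after a log2 difference is the SE of the fit. Control differences, marker means (20 tests) and differences between probe sets within arrays (18 tests over 9 pairs, added after the data were seen) were compared by exact permutation in scipy 1.17.1 with Python 3.11.15, numpy 2.4.6 and pandas 2.3.3, and plotted with matplotlib 3.10.9. Other lists used the probe set with the highest mean per gene, and the text names up to 5 per direction and list with the smallest p, and for Basp1, Tubb3 and Tubb2b the 5 most correlated genes. Members, lists and alternatives were chosen with earlier results of these data known. Sequences came from RefSeq windows of build GRCr8, matched by symbol for 6 of the 7 genes.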

Additional observations from a re-analysis of the deposited data

Results flagged for a closer look

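In 4 of the 48 groups of values checked (12 probe sets in 4 groups), 1 array stood apart from the others of its group by Dixon's criterion, and chance alone gives about 1 in 20. Basp1 reached 8.705 in replicate 1 of Spi-60, where the next array stood at 8.146. Stmn2 stood at 8.675 in replicate 4 of ShamC-60, where the next was 10.2. In replicate 3 of ShamC-21 Marcks 1370948_a_at stood at 4.943, with the next array at 6.798, and Marcks 1370949_at at 5.298, with the next at 5.771. Without the Spi-60 array Basp1 differed by 0.80 at 60 days (limma, adjusted p = 0.00239).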

How the results depend on the processing

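Basp1, Tubb5 1387892_at and Dpysl3 1388101_at kept their direction at both days under each alternative run. Adding the beta-actin 3' minus 5' difference as a covariate gave 2 higher and 0 lower probe sets at 21 days and 0 and 0 at 60 days, and the same with a replicate block gave 0 in every direction and day. This covariate does not overlap between operations, so these fits have little to separate the 2. Over all probe sets the covariate alone left 463 calls at 21 days and 162 at 60 days. With the block added it left 98 and 84, beside 2917 and 2463 in the main fit. With replicates 5 to 8 of Spi-21 only, 2 were higher and 1 lower at 21 days, where 1335 of all probe sets were called. The trend and robust option, quantile normalization and a filter on signals above the median each gave 1 lower probe set at 21 days, and that filter, which removes the dim Marcks probe sets, gave 0 lower at 60 days. Leaving out sham replicates 1 and 4 of day 60 gave 1 lower at 60 days, Tubb2b, while the Marcks calls were lost (1370948_a_at −0.876, adjusted p = 0.308, and 1370949_at −0.324, adjusted p = 0.3). That fit called 797 of all probe sets at 60 days. The GAPDH 3' minus 5' covariate, chosen after seeing the data, gave 0 lower at 60 days and called 1 probe set between days within transected arrays. With it 869 of all probe sets were called at 60 days. Leaving out 1 array at a time gave 3 to 4 higher and 0 to 2 lower probe sets at 21 days, and 4 higher and 0 to 3 lower at 60 days.

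The replicate block changed 2 calls among the 12 probe sets: Tubb5 1370290_at at 21 days was lost (−0.333, adjusted p = 0.103) and Marcks 1370948_a_at at 21 days was gained (−1.04, adjusted p = 0.0488). Samples with the same number deviated together (r over 0.1) in 7 of 24 pairs, from −0.309 to 0.331, so the numbers were not treated as pairs.

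Directions turned mostly where the difference was near 0. Tubb3 at 21 days (0.70 in the main fit) and Marcks 1373432_at (−0.37 and −0.43) turned without being near 0. The cause was not tested. With the replicate block and the beta-actin covariate, Tubb3 at 21 days was −0.0514, Stmn2 −0.461 and −0.353 at 21 and 60 days, Marcks 1373432_at 0.0795 and 0.0286, and Dpysl3 1391010_at at 60 days −0.13. With that covariate alone, Stmn2 at 21 days was −0.133 and Dpysl3 1391010_at at 60 days −0.0793. Array weights gave −0.102 for Stmn2 and −0.018 for Dpysl3 1391010_at at 60 days, and leaving out sham replicates 1 and 4 gave −0.219 and −0.102. Stmn2 at 21 days was −0.0609 with replicates 5 to 8 of Spi-21 only, Tubb5 1370290_at at 60 days 0.000488 after quantile normalization, and Dpysl3 1391010_at at 60 days −0.0152 with the GAPDH covariate. Over single removals Stmn2 ran from −0.0229 to 0.0749 and from −0.153 to 0.305 at 21 and 60 days, Tubb5 1370290_at from −0.174 to 0.0281 and Dpysl3 1391010_at from −0.0667 to 0.0864 at 60 days. Marcks 1370949_at minus 1373432_at within arrays ran from −0.156 to 0.0386 at 21 days and from −0.128 to 0.0671 at 60 days, and was 0.133 with replicates 5 to 8 of Spi-21 only. Taking the mean of a gene's probe sets gave 0.41 and 0.26 for Dpysl3 (limma, adjusted p = 0.000118 and 0.00949), whose brightest probe set alone did not pass, and 0.07 for Tubb5 at 21 days (adjusted p = 0.673).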
